A study of Oryza sativa with 6 samples.

Results

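Protein disulfide isomerase-like (PDIL) genes of rice were examined in embryonic axes of mature Nipponbare seeds that had been aged at 40 °C or at 45 °C. Members were the probe sets assigned by the array annotation to exactly 1 gene with a symbol or synonym of the form PDIL or OsPDIL followed by a digit. The rule gave 12 probe sets of 11 genes, out of 22436 probe sets with 1 gene on the array. The RefSeq name table holds 12 such genes, and the remaining one, OsPDIL5-3, was not analysed here. Some synonyms are shared between genes (PDIL2-1 and PDIL5-1 each name a pair of them), so each gene is called here by the first OsPDIL name that the table lists for it. OsPDIL1-4 is thus LOC4327971, OsPDIL2-1 is LOC4337858 and OsPDIL5-1 is LOC4332486.

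Both groups came from a controlled deterioration treatment, in which warm and humid air is used to age dry seeds. Seeds of both groups were first held for 3 days at 25 °C in air of 85% relative humidity. The ageing step at 40 °C or 45 °C followed in equally humid air and lasted 14 days by the protocols and 15 days by the sample descriptions. Seeds were then dried for 3 days at 25 °C and 32% humidity. There were 3 arrays at each temperature, hybridised with amplified and biotin-labelled RNA on the Affymetrix Rice Genome Array. Whether the 3 replicates come from separate lots of seed is not stated in the labels, and p-values therefore reflect only how these samples vary, which may be technical. An unaged group was not analysed here, so each difference is between a milder and a harsher ageing temperature.

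Protein disulfide isomerases are thioredoxin-fold enzymes that form, break and reshuffle disulfide bonds in proteins that enter the secretory pathway, and most of them reside in the endoplasmic reticulum. Their redox-active cysteines are reoxidised by the oxidase ERO1, and several of them are induced when unfolded proteins accumulate there. In rice seeds the family is best known from the endosperm, where OsPDIL1-1 (the gene of the esp2 mutants) is needed for proglutelin to fold and be sorted, while OsPDIL2-3 acts on prolamin-type storage proteins. Transcripts found in a dry embryo are mostly stored during seed maturation and are available when germination starts.

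The tissue named in the labels was checked against markers. All 10 probe sets of 8 embryo marker genes, among them Em and RAB21, reached the expression minimum (a log2 value averaging 4 or more across the 6 arrays), with array means of 11.11 to 11.39 at 40 °C and 11.003 to 11.09 at 45 °C. Of 23 endosperm marker probe sets, 16 reached it as well, so endosperm transcripts were not absent; at 40 °C their array means spanned 5.90 to 6.46, at 45 °C they spanned 5.94 to 6.71, and the log2 of their summed linear values was 12.70 to 13.30 and 12.62 to 13.61. Aleurone markers reached it in 3 of 4 probe sets and green tissue markers in 1 of 6. The embryo markers differed widely in level: Em averaged 13.7 at 40 °C and 13.6 at 45 °C. The OSH1 probe sets were far lower, at 6.9 and 5.6 at 40 °C and 6.0 and 5.7 at 45 °C. Replicate 2 at 40 °C stood apart within its group. It correlated with the other 40 °C arrays at 0.927 and 0.935, against 0.981 between replicates 1 and 3. The 45 °C arrays correlated with one another at only 0.939 to 0.946. The endosperm marker mean of replicate 2 at 40 °C was the lowest of its group (5.90), but replicate 1 at 45 °C was close (5.94). On replicate 2 at 40 °C, 5 control transcripts gave a mean excess of 3-prime over 5-prime signal of 2.78 log2 units. The other 5 arrays had 1.16 to 1.63. Some isomerase changes moved by more than 1.5 times without replicate 2 at 40 °C. For these the value without it is given beside the result.

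Most disulfide isomerase transcripts had lower values after ageing at 45 °C, and none passed the test over the whole array. Of the 12 probe sets, 10 reached the expression minimum; 9 of these were lower and 1 higher at 45 °C, with log2 changes (45 °C minus 40 °C) from -0.72 to 0.49 and a median of -0.38. Values of the tested probe sets were lower in general, however: over all 22212 the median change was -0.17 and 64.4% were lower. This shift depended on the expression minimum: the median of all probe sets was 0.08 without a minimum and -0.21 with a minimum of 6. In the limma test with Benjamini-Hochberg adjustment no member passed at 0.05, with adjusted p from 0.179 to 0.672, and neither did any other probe set (0% of those tested; smallest adjusted p = 0.109). At an unadjusted p under 0.05 there were 3 members, all lower. Of all tested probe sets 19.2% (4254) reached that level, 13.8% lower and 5.37% higher. The 40 °C and 45 °C arrays did not overlap for 5 of the 10, all lower, against 17.8% of all tested probe sets that were lower without overlap and 10.8% that were higher without overlap.

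**Figure D1:**
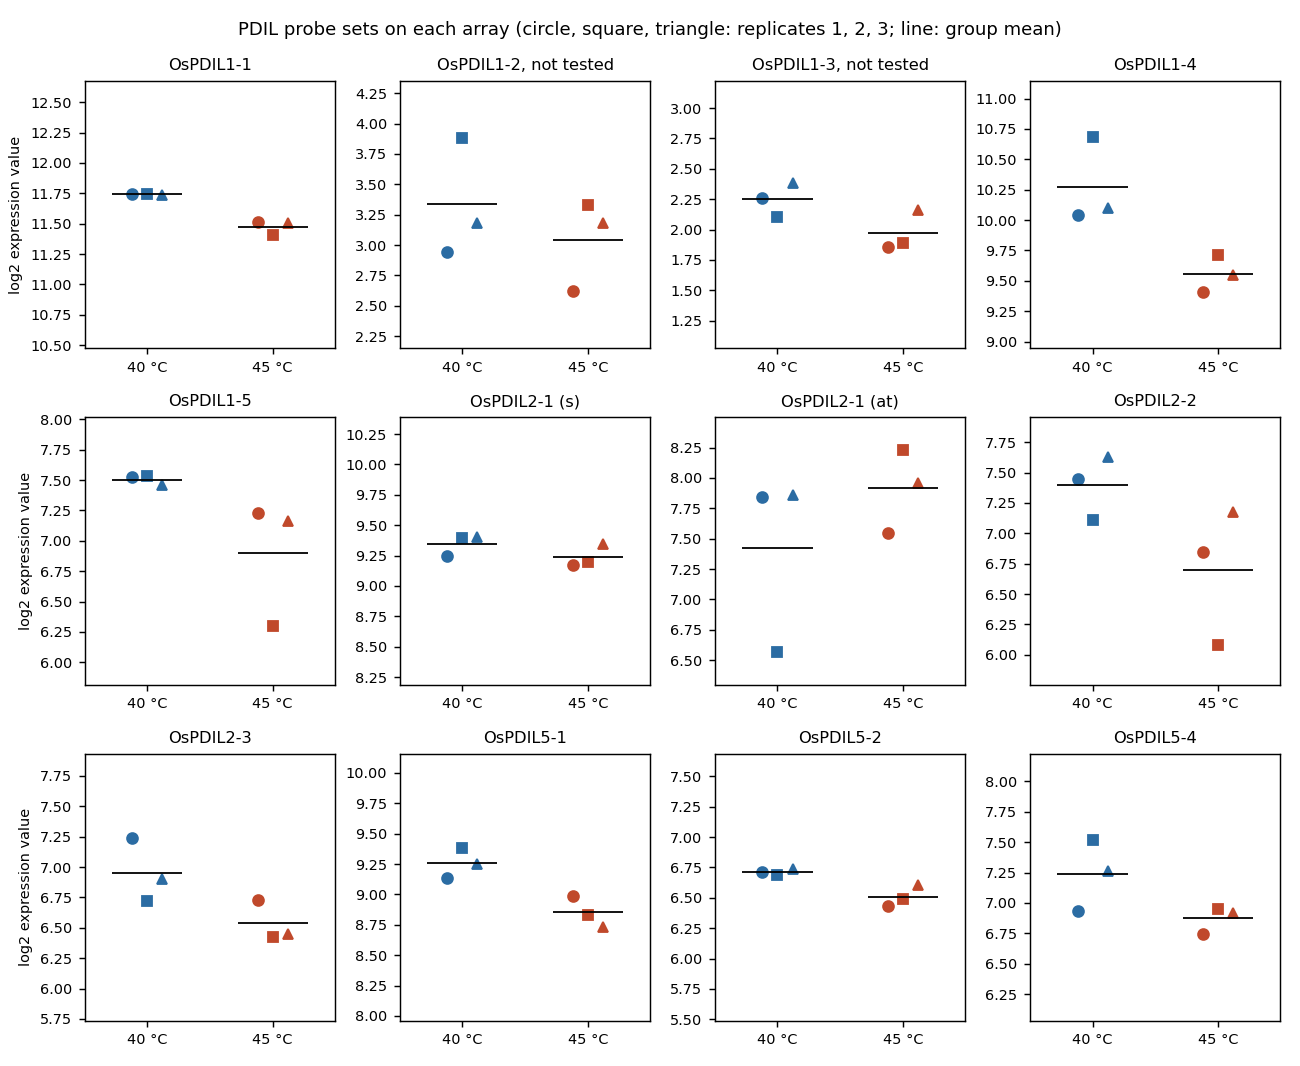
Log2 expression value (vertical axis, the same span in each panel) of the 12 PDIL probe sets on each array at 40 °C (blue) and 45 °C (red); circles, squares and triangles are replicates 1, 2 and 3 and lines are group means. The groups do not overlap for OsPDIL1-1, OsPDIL1-4, OsPDIL1-5, OsPDIL5-1 and OsPDIL5-2, and replicate 2 at 40 °C gives the high value of OsPDIL1-4 (10.68) and the low value of the OsPDIL2-1 probe set marked "at" (6.56).

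OsPDIL1-4 had the largest difference among the members. It belongs to the same subfamily as OsPDIL1-1, the proteins of which resemble classical disulfide isomerase with a pair of catalytic thioredoxin domains. Its log2 values were 10.04, 10.68 and 10.10 at 40 °C and 9.41, 9.71 and 9.55 at 45 °C. Every 45 °C array thus lay below every 40 °C array, and the lowest value at 40 °C exceeded the highest at 45 °C by 0.33. The mean at 40 °C was 10.27 ± 0.35 (SD, n = 3), against 9.56 ± 0.15 (SD, n = 3) after ageing at 45 °C. The log2 change was -0.72 ± 0.20 (SE; 95% interval -1.17 to -0.26), which is 1.64-fold higher at 40 °C, with a limma p of 0.00707 and an adjusted p of 0.179. Relative to the median of all tested probe sets the change was -0.55.

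The highest 40 °C value of OsPDIL1-4 came from replicate 2. Without that array the change was -0.51 with a limma adjusted p of 0.17, and over the 6 arrays left out in turn it ranged from -0.83 to -0.51. The arrays were also scaled further in 3 ways, by median centring, by quantile normalization between arrays and by cyclic loess, which gave -0.46, -0.55 and -0.54. OsPDIL1-4 was the 1 member of the 10 whose groups did not overlap, lower at 45 °C, under all 3 of these scalings and as deposited.

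OsPDIL1-1, the main disulfide isomerase of rice endosperm, was measured with the least spread. At 40 °C its log2 value was 11.74 on each of the 3 arrays, and at 45 °C it was 11.51, 11.40 and 11.51. The groups did not overlap, and the SD was 0.0037 at 40 °C and 0.060 at 45 °C (n = 3 each). The change of -0.27 ± 0.086 (SE) amounts to 1.20-fold higher at 40 °C, with a limma p of 0.0155 and an adjusted p of 0.199. Its size was close to that of the common shift: relative to the median of all tested probe sets it was -0.10, and median centring brought it to -0.01 (limma adjusted p = 0.956), quantile normalization to -0.14 and cyclic loess to -0.16. After both median centring and quantile normalization the groups overlapped.

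Storage protein transcripts, the products of which are folded with the help of OsPDIL1-1 in endosperm, had wider spread. GLUA-2, a glutelin gene singled out after its values had been seen, had values of 9.92, 8.34 and 9.89 at 40 °C and 8.88, 10.39 and 10.10 at 45 °C on its probe set ending in x_at. Replicate 2 at 40 °C was the lowest array there, but on the other GLUA-2 probe set it was the highest (5.74). Of 9 tested probe sets of glutelin, prolamin and globulin genes, 7 were higher and 2 lower at 45 °C, with a median log2 change of 0.10, no probe set without overlap and a smallest limma adjusted p of 0.32 (GLB1, a globulin gene, with a change of -0.55). This tally rested on single arrays. Without replicate 2 at 40 °C it turned to 8 lower and 1 higher with a median of -0.05, and the x_at probe set of GLUA-2 went from 0.40 to -0.12. Over the 6 arrays left out in turn between 1 and 8 of the 9 were lower, so no direction can be given for these transcripts. Carry-over of endosperm RNA and its part in the PDIL values was not tested. In a bulk sample, fewer cells of a type and less RNA per cell cannot be told apart.

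OsPDIL1-5, a further gene of the OsPDIL1 group, had values of 7.52, 7.53 and 7.46 at 40 °C and 7.22, 6.30 and 7.16 at 45 °C. The 40 °C arrays lay close together, and at 45 °C replicate 2 lay far below the others. The change was -0.61 ± 0.29 (SE) with a limma adjusted p of 0.288, and its 95% interval of -1.27 to 0.06 includes 0. Leaving out 1 array gave -0.77 to -0.31, the latter without replicate 2 at 45 °C, and the groups overlapped after each of the 3 further scalings.

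The other pair of OsPDIL1 genes was too dim to be tested. OsPDIL1-2 had values of 2.94, 3.88 and 3.18 at 40 °C and 2.62, 3.33 and 3.18 at 45 °C, and OsPDIL1-3 had 2.26, 2.11 and 2.39 at 40 °C and 1.86, 1.89 and 2.16 at 45 °C. Both stayed under 4 on every array, and the groups overlapped for each. No detection calls were used, so these levels say only that the signal was under the expression minimum.

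The OsPDIL2 group was split. Arabidopsis relatives of this group include PDI11, which combines thioredoxin domains with a C-terminal domain like that of ERp29, and the animal relative of OsPDIL2-3 is the isomerase P5. OsPDIL2-2 had values of 7.45, 7.11 and 7.63 at 40 °C and 6.85, 6.08 and 7.17 at 45 °C. The groups overlapped narrowly, since replicate 3 at 45 °C lay above replicate 2 at 40 °C. Its change of -0.70 ± 0.32 (SE) was nearly as large as that of OsPDIL1-4, but with more spread (limma adjusted p = 0.282; 95% interval -1.45 to 0.05), and at 45 °C leaving out replicate 3 gave -0.93 and leaving out replicate 2 gave -0.39.

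OsPDIL2-3 had values of 7.24, 6.72 and 6.90 at 40 °C and 6.73, 6.43 and 6.45 at 45 °C, a change of -0.42 ± 0.24 (SE) with a limma adjusted p of 0.359. Replicate 1 at 45 °C was on a level with replicate 2 at 40 °C, so the groups overlapped. Omitting a single 40 °C array moved the change to -0.28 (replicate 1) or -0.54 (replicate 2), and the further scalings brought it to -0.16, -0.17 and -0.17. The name of its probe set ends in x_at, which marks probes that may also bind other transcripts.

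OsPDIL2-1 was measured by a pair of probe sets that disagreed in sign. The one ending in s_at, which may bind more than 1 transcript, had values of 9.25, 9.39 and 9.40 at 40 °C and 9.18, 9.19 and 9.35 at 45 °C, a change of -0.11 ± 0.14 (SE). The other had values of 7.84, 6.56 and 7.86 at 40 °C and 7.55, 8.23 and 7.96 at 45 °C, a change of 0.49 ± 0.38 (SE). The limma adjusted p was 0.672 and 0.487. As deposited the groups overlapped on both. On the second probe set the low value of replicate 2 at 40 °C, the array with the largest 3-prime to 5-prime difference, set most of the positive change: without it the change was 0.06. Whether the 3-prime to 5-prime difference plays a part was not tested. The mean of both probe sets gave 0.19 (limma adjusted p = 0.643). The change of the s_at probe set turned positive with median centring (0.15), with quantile normalization (0.10) and with cyclic loess (0.089). After quantile normalization and cyclic loess every 45 °C array lay above every 40 °C array on this probe set, the reverse of its sign as deposited. No direction can therefore be given for this gene.

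**Figure D2:**
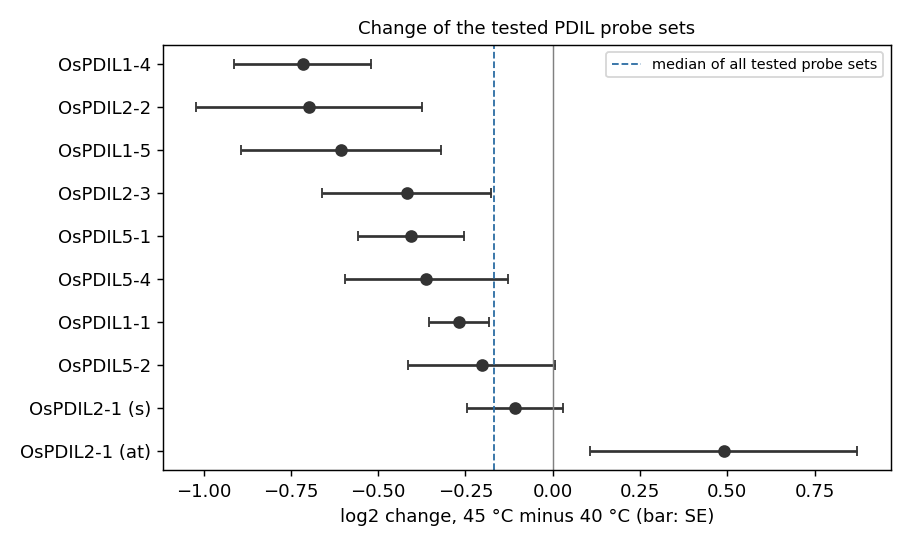
Log2 change (45 °C minus 40 °C, horizontal axis) of the 10 tested PDIL probe sets with SE bars from the limma fit; the dashed line is the median of all tested probe sets (-0.17). OsPDIL1-4 (-0.72) and OsPDIL2-2 (-0.70) lie farthest to the left, and 1 probe set of OsPDIL2-1 (0.49) lies to the right of 0.

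The OsPDIL5 genes encode smaller or membrane-anchored relatives. OsPDIL5-1 has a single thioredoxin domain, the Arabidopsis relative of OsPDIL5-2 is a membrane protein of the endoplasmic reticulum, and OsPDIL5-4 joins a thioredoxin domain to a part that resembles ERV-type cargo receptors of vesicle transport. OsPDIL5-1 had values of 9.14, 9.38 and 9.25 at 40 °C and 8.99, 8.83 and 8.73 at 45 °C. The groups did not overlap, and values were 1.33-fold higher at 40 °C (log2 change -0.41 ± 0.15 SE), with a limma p of 0.0297 and an adjusted p of 0.226. Leaving out 1 array gave -0.48 to -0.34, but the 3 further scalings, in the order given above, moved the change to -0.15, -0.18 and -0.20, and in each of them the groups overlapped.

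OsPDIL5-2 had values of 6.71, 6.69 and 6.74 at 40 °C and 6.44, 6.49 and 6.60 at 45 °C. The groups did not overlap as deposited, but the change of -0.20 ± 0.21 (SE, limma adjusted p = 0.598) was near the common shift and became 0.053, 0.048 and 0.042 under these scalings. OsPDIL5-4 had values of 6.93, 7.51 and 7.26 at 40 °C and 6.74, 6.95 and 6.92 at 45 °C, with overlapping groups and a change of -0.36 ± 0.23 (SE, limma adjusted p = 0.404). Its highest value was again that of replicate 2 at 40 °C; without this array the change was -0.22, and it was -0.11 under each further scaling.

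The count of members lower at 45 °C therefore depended on the scaling of the arrays. Under each of the 3 further scalings 7 of the 10 were lower. The number lower without overlap was 1 with median centring, 1 with quantile normalization and 2 with cyclic loess, against 6.82%, 9.04% and 10.5% of all tested probe sets. In the other direction, the s_at probe set of OsPDIL2-1 was higher without overlap with quantile normalization and with cyclic loess. The share of all tested probe sets higher without overlap was not determined for these scalings. The median of all tested probe sets was 0.09, 0.02 and -0.02, while that of the members was -0.13, -0.16 and -0.16. OsPDIL1-4, OsPDIL2-2 and OsPDIL1-5 kept the largest negative changes under each, from -0.55 to -0.35. The members did not vary as a block within a group: at 45 °C, replicate 1 was the lowest array for 5 of the 10 probe sets, replicate 2 for 4 and replicate 3 for 1.

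**Figure D3:**
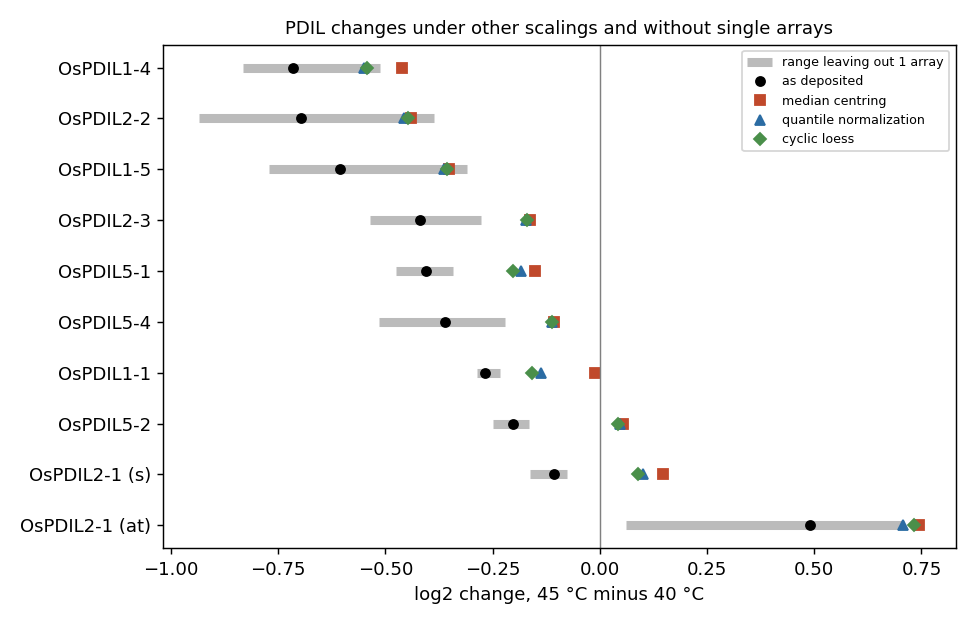
Log2 change (45 °C minus 40 °C, horizontal axis) of the 10 tested PDIL probe sets as deposited and after 3 further scalings, with grey bars for the range when 1 array is left out. All scalings move the points to the right, OsPDIL1-4 stays between -0.72 and -0.46, and OsPDIL5-2 and the "s" probe set of OsPDIL2-1 cross 0.

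Other genes of folding and quality control in the endoplasmic reticulum were described beside the isomerases. The name patterns gave 24 probe sets, of which 21 were tested: 17 were lower and 4 higher, 2 had an unadjusted limma p under 0.05, both lower (19.2% of all tested probe sets reached that level, 13.8% lower), and none an adjusted p under 0.05 (smallest adjusted p = 0.177). Of these 24, 9 carried names from bip103 to bip131, which do not number the BiP chaperones, and both probe sets with an unadjusted p under 0.05, bip130 (-0.52) and bip103 (-0.31), were among them. Without these names, 13 probe sets were tested. They had a median log2 change of -0.26, against -0.17 for all tested probe sets and -0.38 for the isomerases. Of the 13, 10 were lower and 3 higher, none with an unadjusted p under 0.05, and after each further scaling 8 were lower and 5 higher.

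BIP1, the binding protein that holds unfolded chains in the endoplasmic reticulum, had a log2 change of -0.34 ± 0.18 (SE, limma adjusted p = 0.331). BZIP39, a membrane-bound transcription factor of the unfolded protein response, had -0.39 ± 0.19 (SE, limma adjusted p = 0.293). ERDJ2, a J-domain cofactor of BIP1, had -0.26 ± 0.13 (SE, limma adjusted p = 0.312). These 3 were the lower probe sets of smallest p. In the other direction, OS9, a lectin of the degradation pathway, had 0.09 and BZIP60 had 0.07, both smaller than their SE; without replicate 2 at 40 °C that of BZIP60 was -0.135.

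BZIP50, also named OsbZIP74, was the 1 folding-related probe set of the 13 that was higher without overlap as deposited, against 10.8% of all tested probe sets. Its transcript is known to be cut and rejoined by IRE1 during the unfolded protein response, which yields the active transcription factor. Its values were 8.16, 7.62 and 8.07 at 40 °C and 8.18, 8.46 and 8.58 at 45 °C, so that every 45 °C array lay above every 40 °C array, by as little as 0.025 between the nearest pair. The change was 0.46 ± 0.21 (SE, limma adjusted p = 0.285), and 0.66 to 0.71 after the 3 further scalings, with no overlap in any of them. How many of all tested probe sets were higher without overlap after those scalings was not determined. The lowest value was that of replicate 2 at 40 °C, without which the change was 0.29, still without overlap. Without that array 14.4% of all tested probe sets were higher without overlap, so separation of this kind was common. The probe set does not tell the spliced from the unspliced form. IRE1 itself had a change of -0.42 (limma adjusted p = 0.348) and was singled out after its values had been seen. Its groups did not overlap as deposited, by only 0.0013 between the nearest pair, and overlapped after each further scaling. Of the 13, 2 were lower without overlap as deposited (IRE1 and BZIP39), against 17.8% of all tested probe sets.

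**Figure D4:**
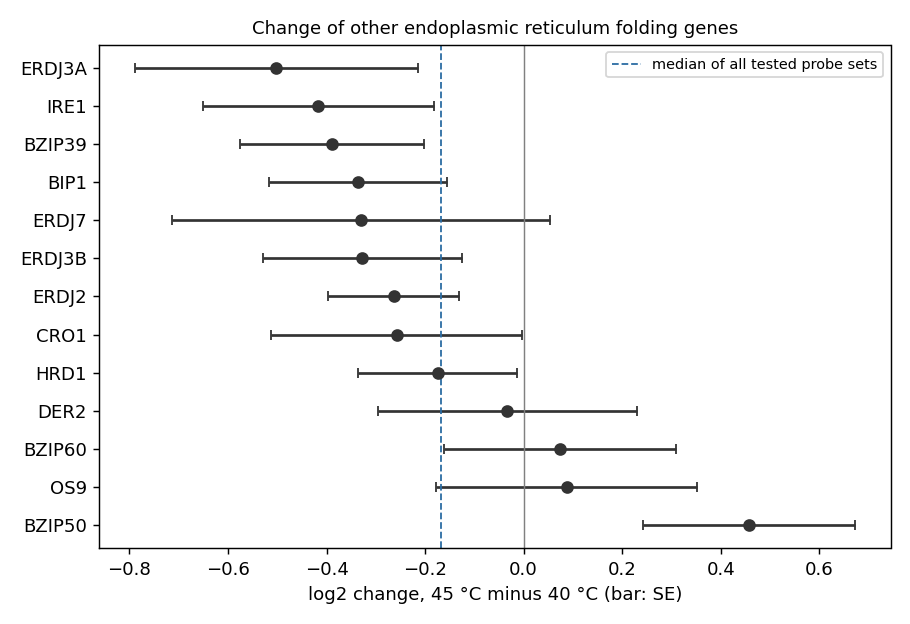
Log2 change (45 °C minus 40 °C, horizontal axis) with SE bars for 13 other tested probe sets of endoplasmic reticulum folding and quality control; the dashed line is the median of all tested probe sets (-0.17). BZIP50 (0.46) is the farthest to the right, and 10 of the 13 lie below 0.

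Name patterns for coat and transport genes that take proteins from the endoplasmic reticulum gave 11 probe sets, with no coat gene among them. Of these, 7 belonged to RAB16-type dehydrins, RAB25 or the G protein gene RGA1. The rest were of GPA1 (the Rab5a GTPase), GPA2 and GPA3, known from rice mutants that accumulate glutelin precursors. After what remained, it is called the sorting list here. Of the 3 tested probe sets left, all were lower at 45 °C, with a median log2 change of -0.26, of which GPA3 had -0.09. GPA1 had -0.38 ± 0.17 (SE, limma adjusted p = 0.265). After each further scaling 2 of the 3 were lower and 1 higher, as they were without replicate 2 at 40 °C (GPA3 0.12).

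Genes with the most similar pattern over the 6 arrays were sought for the 3 isomerase genes of highest mean signal, among about 2045 tested probe sets of other named genes, after subtracting each array's median. The nearest to OsPDIL1-4 were LG2 (Pearson r = 0.993), FOR1 (0.969) and TDC2 (0.967). The nearest to OsPDIL1-1 were CIGR2 (0.994), AGO1B (0.947) and cbp3 (0.937), and the nearest to the s_at probe set of OsPDIL2-1 were OsYAB5 (0.997), MS (0.986) and VATP-P1 (0.981). These coefficients are a description over 6 points, and a shared difference between temperatures can raise them. After this centring that difference was -0.46 for OsPDIL1-4, -0.01 for OsPDIL1-1 and 0.15 for the s_at probe set of OsPDIL2-1. Of the candidates, 38 exceeded 0.9 for OsPDIL1-4, 10 for OsPDIL1-1 and 55 for OsPDIL2-1. LG2 had a log2 change of -1.94 (limma adjusted p = 0.179), larger than that of OsPDIL1-4.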

How the data were processed

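The values deposited by the authors are on a log2 scale with 1 value for each probe set on each array; per the submitters' processing notes they come from GCRMA, of which no version is named. All 6 value columns belong to the 6 samples, and no detection calls were used. RNA input was 50 ng per the labels' protocols. From 57381 probe sets, 187 controls were left out. Probe sets were named through the platform annotation (22436 with 1 gene, 95 with several) and the RefSeq gene table of assembly ASM3414082v1, used for names alone.

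The 22212 probe sets whose log2 values averaged 4 or more were fitted with limma 3.58.1 in R 4.3.3 (lmFit, eBayes with an intensity trend; temperature the only term; two-sided; Benjamini-Hochberg over all of them at 0.05). The step was tested on simulated data. The number of arrays limits the precision. No pair of arrays shared more than 0.872% identical values.

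The members and lists were chosen with earlier results of these data known. Every member probe set is named; of the folding and sorting lists, BIP1 and up to 3 probe sets of smallest p per direction; for likeness, 3 genes per isomerase. Lists were trimmed of other families by name after values had been seen. Alternatives were other minimums, scalings, weights, thresholds, the intensity trend, the replicate block and leaving out each array.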

Additional observations from a re-analysis of the deposited data

How the results depend on the processing

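No PDIL probe set passed the adjusted threshold of 0.05 under any alternative run; the lowest adjusted limma p of a member was 0.0771, for OsPDIL1-4 with array quality weights. Over all tested probe sets the count was 0 except with array quality weights (192, of which 178 lower), and it ranged from 0 to 67 when leaving out 1 array, with 67 reached without replicate 2 at 40 °C. At an unadjusted limma p under 0.05 the counts were 4254 for all tested probe sets and 3 for the PDIL genes. They were 2 for the folding list and 2 for the sorting list as first matched by name. After trimming of other families they were 0 for both lists. The median log2 change of the PDIL probe sets was -0.33 without an expression minimum (where all 12 enter), -0.13 after median centring, -0.16 after quantile normalization, -0.16 after cyclic loess. It ranged from -0.39 to -0.31 over the arrays left out in turn. PDIL probe sets lower without overlap numbered 1 after median centring, 1 after quantile normalization, 2 after cyclic loess, and between 5 and 7 over the arrays left out in turn, where the share of all tested probe sets was 22% to 26.1%. The s_at probe set of OsPDIL2-1 was higher without overlap after quantile normalization and after cyclic loess. Reversed signs were limited to the s_at probe set of OsPDIL2-1 (0.15, 0.10 and 0.089 under the same 3 scalings; 0.19 as the mean of both probe sets) and OsPDIL5-2 (0.053, 0.048 and 0.042); the cause was not tested. Deviations of same-numbered arrays from their group means had correlations of -0.14 to 0.03. With 3 arrays per group this cannot decide whether the numbers pair the samples, and the labels name no pairing. With the replicate block 0 probe sets passed and OsPDIL1-4 had a limma adjusted p of 0.283.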
